A study of Mus musculus with 16 samples.

Results

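The comparison is that of peritoneal macrophages from B10.Q/J mice 5 h after a subcutaneous injection of interferon alpha (IFNα) with the same cells from mice given vehicle. It rests on 4 of the 16 arrays of the series, chosen by their titles: 2 IFNα arrays at 5 h, and 2 vehicle arrays of which vehicle array 1 was taken at 2 h and vehicle array 2 at 5 h. All were from 7-week-old male mice, the IFNα dose was 10000 units, and the cells were sorted as F4/80+ ICAM2+. B10.Q/J is a strain known to carry a natural mutation in Tyk2, and the vehicle mice carry it as well. The series was set up around the roles of IFNAR1 and Tyk2 in the response to type I interferon. Further arrays were used beside these: 2 of B10.Q macrophages at 2 h after IFNα, 6 of splenic CD4+ T cells of the same strain (5 h, 2 h and vehicle, 2 each) and 4 of macrophages from 6-week-old C57BL/6 mice without Ifnar1 (KO, 2 at 2 h after IFNα and 2 titled without IFNα). For the untreated KO arrays the label on sample preparation also mentions the injection, and their titles were followed. The title of T-cell vehicle array 1 starts with B, while its cell family and sort markers are those of CD4+ T cells. Its 8 T-cell markers averaged 11.11 and its 9 B-cell markers 6.65, against 10.87 to 11.15 and 6.74 to 6.87 in the other 5 T-cell arrays. The titles of 5 of the 6 B10.Q macrophage arrays carry the letters Sp, while their source is given as the peritoneal cavity.

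Type I interferons bind a receptor made of IFNAR1 and IFNAR2, whose chains hold the kinases Tyk2 and Jak1. The kinases activate STAT2, which acts with IRF9 in the complex ISGF3 at the interferon-stimulated response element in the promoters of target genes. In macrophages these targets include proteins that bind or degrade viral RNA, sensors of foreign nucleic acid, and feedback proteins such as Usp18.

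Levels are log2 of the deposited intensity of the probe set that stands for a gene, and a difference is the mean of the 2 IFNα arrays minus the mean of the 2 vehicle arrays. Errors are standard errors (SE) of the difference. A gene was said to have risen or fallen when its p-value, adjusted by Benjamini-Hochberg over all genes tested, was under 0.05. The probe-set values of the 2 IFNα arrays differed with an SD of 0.16, those of the 2 vehicle arrays with an SD of 0.15, and array medians of the series lay between 173.57 and 193.7 intensity units. The 21 macrophage markers on the array, among them Adgre1, Icam2 and Gata6, averaged 12.28 and 12.35 in the IFNα arrays and 12.26 and 12.23 in the vehicle arrays, and 1 of the 21, Fcgr1, rose. All 8 T-cell, 6 NK-cell, 7 mast-cell and 5 eosinophil markers lay below the array median in these 4 arrays, as did 9 of 10 neutrophil, 7 of 9 B-cell, 6 of 8 monocyte and dendritic-cell and 6 of 7 mesothelial markers.

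At 5 h after IFNα, 88 genes rose and 0 fell. The 88 make up 0.836% of the 10531 genes tested, against 0.0% that fell, and an unadjusted p under 0.05 was reached by 327 higher genes (3.11%) and 87 lower genes (0.826%). The rises ran from 0.70 to 4.93 on the log2 scale with a median of 1.65, whereas the median over all genes tested was -0.01. Of the 88 genes, 75 rose by at least 1, 28 by at least 2, 11 by at least 3 and 4 by at least 4 on the log2 scale. With the genes at their bound where vehicle was near background, as given below, 27 rose by at least 2 and 10 by at least 3. The 4 that rose by at least 4 were Rtp4, Mx1, Usp18 and Ifit1. Rtp4 is a protein that helps receptors to the cell surface, and Mx1 is a dynamin-like GTPase. Usp18 removes ISG15 from proteins and dampens the receptor, and Ifit1 binds viral RNA that lacks the host's cap methylation. In bulk samples of sorted cells, a change in the make-up of the cells and a change in RNA per cell cannot be told apart.

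For all 88 genes both IFNα arrays lay above both vehicle arrays, an order that 19.1% of all tested genes showed. Both 5 h arrays also lay above all 4 KO macrophage arrays for these 88 genes, against 19.0% of all tested genes. The 88 were chosen by their rise in these same 5 h arrays, which favours both orders, and the KO arrays entered that fit. The KO mice also differed in strain and age. Neither count is further evidence of a rise. IFNα array 2 was higher than IFNα array 1 for 70 of the 88, by a median of 0.11, and over all tested genes it was higher in 55.3%. Vehicle array 2 was higher than vehicle array 1 for 43 of them, against 50.1% of all tested genes. The largest gap between the IFNα arrays was 0.60, for Ifit3, and the largest between the vehicle arrays was 0.49, for Ms4a6c.

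The number of genes depends on which arrays lend the estimate of spread. The 10 macrophage arrays, KO included, gave 88 higher and 0 lower, the 6 B10.Q macrophage arrays 150 and 8, and the 4 compared arrays 188 and 15. In a test added after seeing the data, leaving out KO IFNα array 1, whose pair had the widest replicate difference (SD 0.36), gave 150 and 5. Leaving out IFNα array 1 gave 38 genes, IFNα array 2 gave 29, vehicle array 1 gave 33 and vehicle array 2 gave 34, all higher. With 2 arrays against 2, an exact permutation test cannot go below a two-sided p of 0.333.

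**Figure D1:**
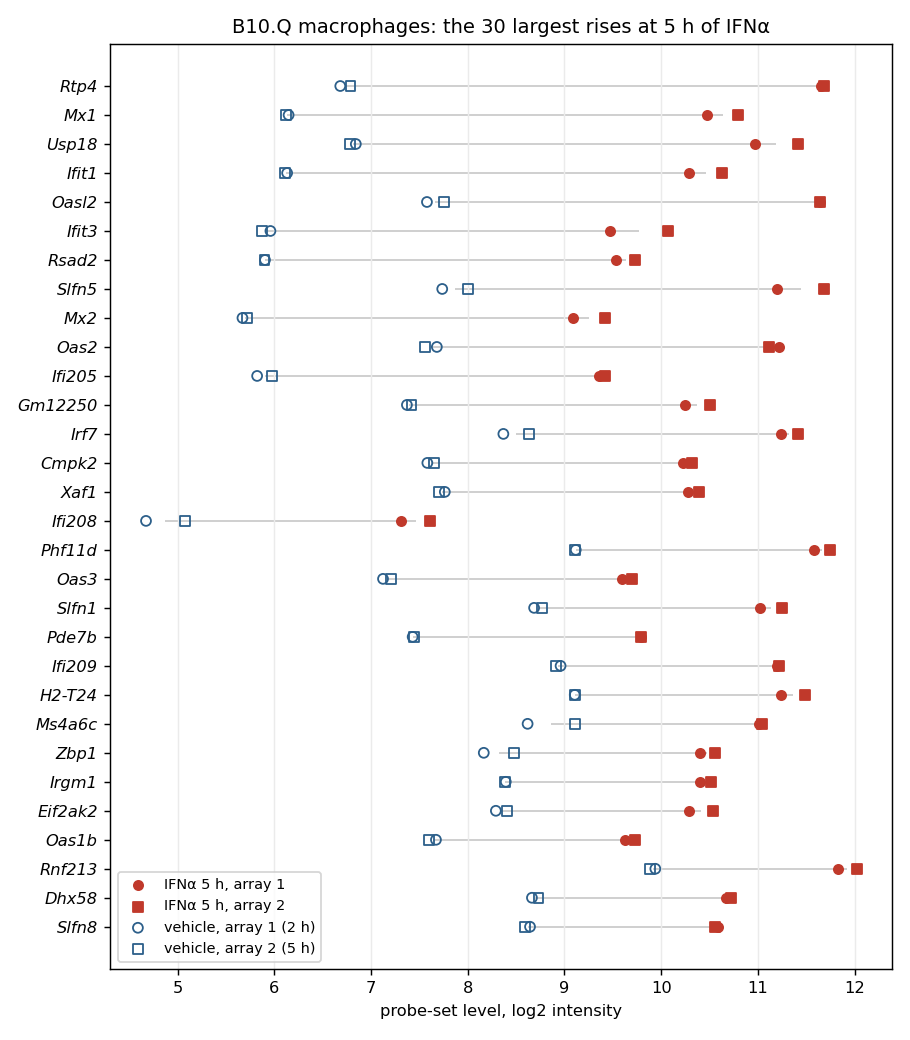
Levels of the 30 genes with the largest rises, in log2 intensity on the horizontal axis, with 1 point per array: filled red for IFNα at 5 h, open blue for vehicle, and a grey line between the group means. For every gene the 2 IFNα arrays sit to the right of both vehicle arrays, from Rtp4 (difference 4.93) down to Slfn8 (1.96).

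Antiviral effectors included 3 of the 4 genes that rose by at least 4 on the log2 scale. Of 35 tested members of this list, 19 rose and 0 fell, with a median difference of 1.30. Over all tested genes 0.836% rose, which is the share to set beside this and the list counts below. The lists were chosen with earlier results of these data known, so their counts do not test whether a list is over-represented. Rtp4 measured 11.65 and 11.69 in the IFNα arrays and 6.68 and 6.79 in the vehicle arrays, a difference of 4.93 ± 0.25 (adjusted p = 1.5e-05). Mx1 measured 10.47 and 10.80 after IFNα and 6.15 and 6.12 with vehicle (4.50 ± 0.26, adjusted p = 3.77e-05). Its neighbour Mx2, a second dynamin-like GTPase, measured 9.09 and 9.41 after IFNα and 5.67 and 5.72 with vehicle (3.56 ± 0.24, adjusted p = 9.16e-05). In each of these genes the gap between groups was many times the gap between replicates.

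Ifit1 and Ifit3 are partners in binding viral RNA. Ifit1 measured 10.28 and 10.63 after IFNα and 6.13 and 6.11 with vehicle (4.34 ± 0.42, adjusted p = 0.000888). Ifit3 measured 9.47 and 10.07 after IFNα and 5.96 and 5.87 with vehicle (3.85 ± 0.58, adjusted p = 0.0117). Ifit3 was past the threshold in none of the 4 tests that left out an array, and Ifit1 in all 4. Rsad2 encodes viperin, an enzyme that makes a chain-terminating nucleotide, and lies beside Cmpk2, a nucleotide kinase. Rsad2 measured 9.54 and 9.73 after IFNα and 5.90 in both vehicle arrays (3.73 ± 0.45, adjusted p = 0.00311). Cmpk2 measured 10.22 and 10.32 after IFNα and 7.58 and 7.65 with vehicle (2.66 ± 0.40, adjusted p = 0.0112).

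In 7 genes both vehicle arrays lay under the lower quartile of their own array, so the rise is given as a bound against that quartile. The bounds were at least 20.2-fold for Mx1, 17.8-fold for Ifit1, 11-fold for Ifit3, 10.1-fold for Rsad2, 8.50-fold for Ifi205, 7.72-fold for Mx2 and 2.23-fold for Ifi208.

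The oligoadenylate synthetase family includes enzymes that make the messenger that switches on RNase L, and several members of the family rose. Oasl2, a member with a ubiquitin-like tail, measured 11.64 in both IFNα arrays and 7.58 and 7.75 with vehicle (3.97 ± 0.33, adjusted p = 0.000353). Oas2 measured 11.22 and 11.12 after IFNα and 7.68 and 7.56 with vehicle (3.55 ± 0.28, adjusted p = 0.000332). Oas3 measured 9.60 and 9.70 after IFNα and 7.12 and 7.21 with vehicle (2.48 ± 0.29, adjusted p = 0.0024). Smaller rises were seen in Oas1b (2.04 ± 0.21), Oas1a (1.62 ± 0.16) and Oas1c (0.88 ± 0.13). Oasl1, which limits the translation of Irf7, had a difference of 1.46 ± 0.30 and did not pass (adjusted p = 0.0737). The Oas1 genes are similar in sequence, and their probe sets may share signal.

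Eif2ak2, the kinase PKR that halts translation when it binds double-stranded RNA, measured 10.29 and 10.53 after IFNα and 8.29 and 8.41 with vehicle (2.06 ± 0.21). Helz2, a helicase and coactivator, rose by 1.84 ± 0.20, and the helicase-related Ddx60 by 1.83 ± 0.28. Ifi27l2a rose by 1.30 ± 0.15, the RNA editing enzyme Adar by 1.24 ± 0.17 and Ifi35 by 1.23 ± 0.21. The membrane restriction factors of the Ifitm group started high and moved little: Ifitm3 measured 13.28 and 13.23 after IFNα and 13.00 and 12.94 with vehicle (0.29 ± 0.13, adjusted p = 1.0), and the difference for Ifitm2 was 0.06 ± 0.12. Bst2, which tethers budding virus, had a difference of 0.42 ± 0.14 (adjusted p = 0.721). Gm4951, a predicted GTPase, had the largest difference in the list without passing the test (2.34 ± 0.55, adjusted p = 0.149).

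ISG15 is a ubiquitin-like protein whose own gene is not analysed here, since no probe set carries its symbol alone. Of 7 tested genes of its conjugation, 2 rose. Usp18 measured 10.97 and 11.41 after IFNα and 6.84 and 6.78 with vehicle (4.38 ± 0.42, adjusted p = 0.000865). Herc6, the main ligase for ISG15 in the mouse, measured 10.64 and 10.79 after IFNα and 9.12 and 8.89 with vehicle (1.71 ± 0.31, adjusted p = 0.0346). The conjugating enzyme Ube2l6 (0.88 ± 0.25) and the activating enzyme Uba7 (0.39 ± 0.15) were higher in both IFNα arrays without passing the test. Of all tested genes 19.1% showed that order. Among 14 tested feedback genes Usp18 alone passed, and Socs1, an inhibitor of the receptor's kinases, had a difference of 0.18 ± 0.20.

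Of 26 tested genes of RNA and DNA sensing, 11 rose, with a median of 0.56 over the list. The cytosolic RNA sensors rose together: Dhx58 (LGP2) by 2.00 ± 0.26, Ddx58 (RIG-I) by 1.82 ± 0.20 and Ifih1 (MDA5) by 1.52 ± 0.23. Ddx58 measured 11.24 and 11.33 after IFNα and 9.46 in both vehicle arrays. Their adaptor Mavs had a difference of 0.03 ± 0.22. Of the DNA-sensing arm, Cgas rose by 0.94 ± 0.14 and the DNA exonuclease Trex1 by 1.23 ± 0.16, while Sting1 had a difference of 0.14 ± 0.12 and Aim2 of 0.16 ± 0.15.

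The Ifi200 genes, which encode nucleic acid binding proteins of the PYHIN family, gave 5 of these rises. Ifi205 measured 9.36 and 9.42 after IFNα and 5.82 and 5.98 with vehicle (3.49 ± 0.51, adjusted p = 0.0101). Ifi208 measured 7.31 and 7.61 after IFNα and 4.67 and 5.07 with vehicle (2.59 ± 0.41, adjusted p = 0.0145). Ifi209 measured 11.20 and 11.22 after IFNα and 8.96 and 8.91 with vehicle (2.27 ± 0.30, adjusted p = 0.00548). Ifi207 rose by 1.93 ± 0.16 and Ifi203 by 1.25 ± 0.20. Ifi213 had a difference of 2.31 ± 0.56 that did not pass (adjusted p = 0.169). These genes are near copies of each other in part, so the split of signal among them is uncertain. The endosomal Toll-like receptors showed smaller values: Tlr3 had a difference of 0.82 ± 0.25 (adjusted p = 0.443), Tlr8 of 0.27 ± 0.19 and Tlr7 of -0.07 ± 0.19.

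Among 22 tested signalling genes, 3 rose, all of them transcription factors of the pathway, and the median was 0.03. Irf7, which amplifies interferon production, measured 11.24 and 11.42 after IFNα and 8.37 and 8.64 with vehicle (2.83 ± 0.28, adjusted p = 0.001). Stat2 measured 10.38 and 10.69 after IFNα and 8.67 in both vehicle arrays (1.87 ± 0.26, adjusted p = 0.00855). Irf9 measured 10.70 and 10.65 after IFNα and 9.12 and 9.15 with vehicle (1.54 ± 0.20, adjusted p = 0.00465). The receptor chains and kinases had small differences. Ifnar1 measured 10.09 and 10.26 after IFNα and 10.26 and 10.46 with vehicle (-0.19 ± 0.15). Tyk2 measured 9.89 and 9.84 after IFNα and 9.85 and 9.92 with vehicle (-0.02 ± 0.13, 95% interval -0.31 to 0.27). Ifnar2 had a difference of 0.02 ± 0.10 and Jak1 of 0.04 ± 0.12, and Irf1, a factor shared with interferon gamma, of 0.73 ± 0.30 (adjusted p = 1.0).

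The Schlafen genes, a rodent-expanded family that includes Slfn2, a brake on the exit of immune cells from quiescence, rose in 8 of 8 tested members with a median of 1.73. Slfn5 measured 11.20 and 11.68 after IFNα and 7.74 and 7.999 with vehicle (3.58 ± 0.28, adjusted p = 0.000332). Slfn1 measured 11.02 and 11.25 after IFNα and 8.69 and 8.77 with vehicle (2.41 ± 0.25, adjusted p = 0.00112). Slfn8 measured 10.59 and 10.56 after IFNα and 8.64 and 8.59 with vehicle (1.96 ± 0.16, adjusted p = 0.000343). The rises of Slfn9, Slfn4, Slfn10-ps, Slfn3 and Slfn2 lay between 1.35 and 1.77. Similar sequences make the share of each Schlafen gene uncertain.

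TRIM proteins and nuclear body genes gave 7 rises among 14 tested, with a median of 0.81. The nuclear body proteins Sp100, Daxx and Pml rose by 1.77 ± 0.23, 1.11 ± 0.20 and 0.88 ± 0.15 in that order. Trim30d, Trim30a, Trim34a and Trim12c rose by 1.44, 1.24, 0.99 and 0.92, and they lie side by side on chromosome 7. Interferon-linked members of the PARP family attach ADP-ribose to proteins. Of 12 tested genes in a list of this family and the Parp9 partner Dtx3l, 4 rose. Parp14 rose by 1.78 ± 0.22, Parp9 by 1.64 ± 0.20, Parp12 by 1.56 ± 0.22 and Dtx3l by 1.25 ± 0.19. The DNA repair enzyme Parp1 had a difference of -0.06 ± 0.12. Of 11 tested genes in a list of Phf11, chromatin-linked and other interferon genes 5 rose. Phf11d measured 11.58 and 11.74 after IFNα and 9.12 and 9.11 with vehicle (2.55 ± 0.34, adjusted p = 0.00626). Rnf213, a large ubiquitin ligase, measured 11.83 and 12.02 after IFNα and 9.94 and 9.89 with vehicle (2.01 ± 0.22, adjusted p = 0.00177). The histone methyltransferase Setdb2 rose by 1.31 ± 0.25 (adjusted p = 0.0482), Phf11a by 1.92 ± 0.29 and the RNA helicase Znfx1 by 1.16 ± 0.18.

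Of 8 tested GTPases of the GBP and IRG families, which act on the vacuoles of intracellular microbes, 2 rose and the median was 1.28. Gm12250 measured 10.24 and 10.51 after IFNα and 7.37 and 7.42 with vehicle (2.98 ± 0.44, adjusted p = 0.0102). Irgm1 measured 10.40 and 10.52 after IFNα and 8.39 in both vehicle arrays (2.07 ± 0.38, adjusted p = 0.0366). The 6 others were higher in both IFNα arrays without passing the test, an order that 19.1% of all tested genes showed. Among them Iigp1 had a difference of 1.95 ± 0.79, Gbp9 of 1.45 ± 0.42, Gbp5 of 1.11 ± 0.44 and Gbp3 of 0.28 ± 0.21. In the cell death list 3 of 18 rose. Xaf1, which opposes the apoptosis inhibitor XIAP, measured 10.28 and 10.39 after IFNα and 7.76 and 7.70 with vehicle (2.60 ± 0.22, adjusted p = 0.000343). Zbp1, a sensor of Z-form nucleic acid upstream of necroptosis, measured 10.40 and 10.56 after IFNα and 8.17 and 8.48 with vehicle (2.15 ± 0.33, adjusted p = 0.0132). Mlkl, the effector of necroptosis, rose by 0.95 ± 0.16, and its kinase Ripk3 had a difference of 0.03 ± 0.16.

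Surface genes gave 6 rises among 19 tested, with a median of 0.84. Ms4a6c, a membrane protein of the MS4A family, measured 11.01 and 11.04 after IFNα and 8.62 and 9.11 with vehicle (2.16 ± 0.23, adjusted p = 0.00144). Siglec1, the sialic acid receptor CD169, measured 9.43 and 9.60 after IFNα and 7.66 and 7.96 with vehicle (1.70 ± 0.17, adjusted p = 0.001). Fcgr1, the high-affinity IgG receptor, measured 9.61 and 9.91 after IFNα and 8.61 and 8.13 with vehicle (1.40 ± 0.27, adjusted p = 0.0482). Ms4a6d rose by 1.10 ± 0.19, Clec2d by 0.98 ± 0.18 and Cd300lf, a lipid-binding receptor, by 0.84 ± 0.14. The low-affinity Fc receptors were near level, with differences of 0.24 ± 0.12 for Fcgr2b and -0.03 ± 0.14 for Fcgr3. Fcgr4 had a difference of 0.87 ± 0.19 (adjusted p = 0.114).

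In antigen presentation by MHC class I, 1 of 19 tested genes rose. H2-T24, a nonclassical class I gene, measured 11.24 and 11.49 after IFNα and 9.11 in both vehicle arrays (2.26 ± 0.21, adjusted p = 0.000648). The peptide transporter Tap1 had a difference of 1.19 ± 0.33 that did not pass (adjusted p = 0.308), and B2m of 0.03 ± 0.11. None of the 8 tested MHC class II genes, 12 phagocytosis genes or 20 chemokine and cytokine genes passed in either direction. The largest differences among the last were those of Ccl2 (1.20 ± 0.42), Tnfsf10 (1.20 ± 0.31), Il15 (1.11 ± 0.24) and Cxcl10 (0.98 ± 0.50). H2-Aa of class II had a difference of -0.54 ± 0.24 and the mannose receptor Mrc1 of -0.75 ± 0.30. The chemokine receptor Ccr2, a monocyte marker, had a difference of -0.70 ± 0.36.

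**Figure D2:**
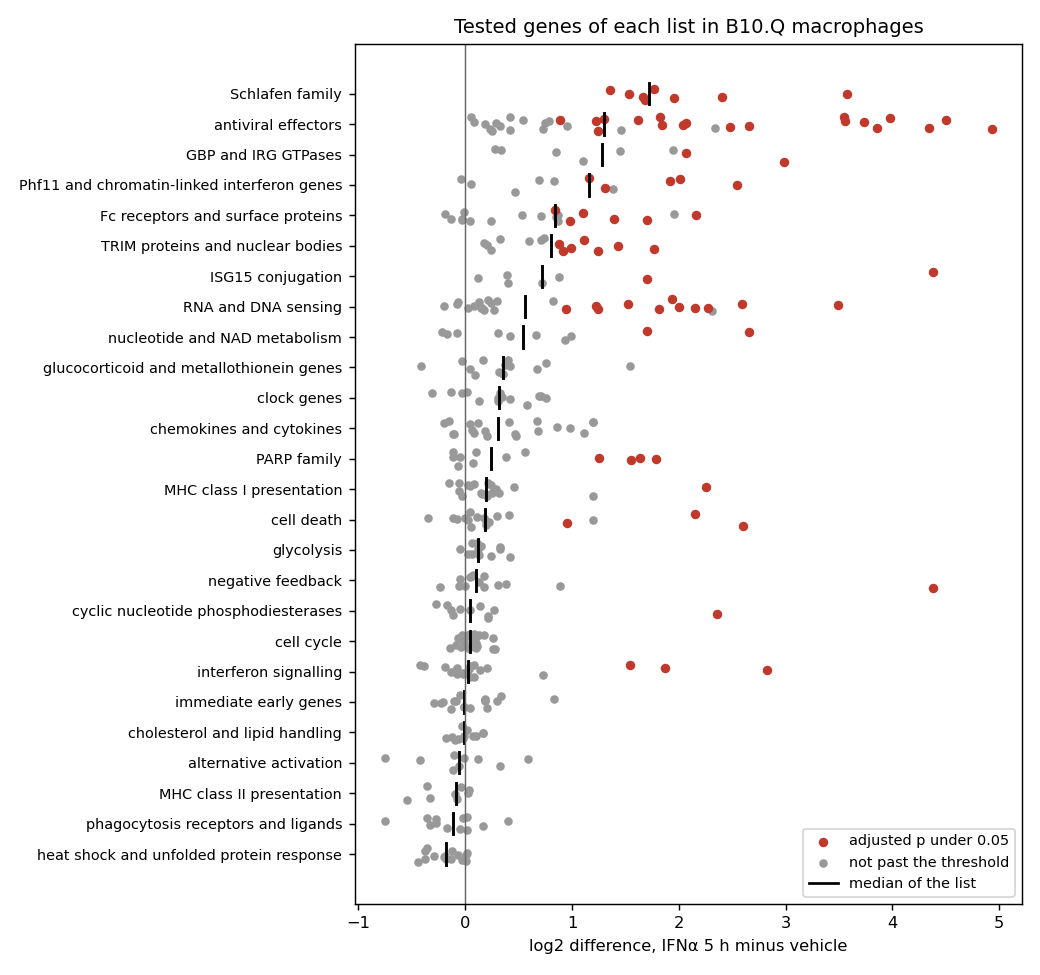
Difference between IFNα at 5 h and vehicle on the log2 scale (horizontal) for every tested gene of 26 lists (rows, ordered by median); red points passed the test, grey points did not, and the black bar is the list's median. Schlafen genes, antiviral effectors and GTPases have the highest medians (1.73, 1.30 and 1.28), and lists such as cell cycle, lipid handling and MHC class II are centred near 0. The lists were chosen with earlier results of these data known.

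Metabolic genes moved in few places. Of 10 genes of nucleotide and NAD metabolism 2 rose, Cmpk2 and Dck. Dck, which phosphorylates salvaged deoxynucleosides, measured 10.14 and 10.22 after IFNα and 8.50 and 8.45 with vehicle (1.70 ± 0.18, adjusted p = 0.00116). Nampt, the rate-limiting enzyme of NAD salvage, had a difference of 0.99 ± 0.20 (adjusted p = 0.0612). Among 11 cyclic nucleotide phosphodiesterases Pde7b rose, and the other differences lay between -0.28 (Pde10a) and 0.27 (Pde12). Pde7b, which degrades cyclic AMP, measured 9.80 and 9.79 after IFNα and 7.43 and 7.44 with vehicle (2.36 ± 0.12, adjusted p = 1.5e-05). None of 12 genes of cholesterol and lipid handling, 12 of glycolysis, 9 of alternative activation, 15 of the heat shock and unfolded protein response, 17 immediate early genes or 27 cell cycle genes passed in either direction, and their medians ran from -0.18 (heat shock) to 0.12 (glycolysis).

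Of the 88 genes, 16 belonged to none of the lists. They included Tor3a (1.39 ± 0.24), Stxbp3, a protein of vesicle fusion (1.33 ± 0.21), the RNA tailing enzyme Tent4a (1.21 ± 0.22), Samd9l (1.18 ± 0.21), the centriole protein Sass6 (1.17 ± 0.16) and Ccnyl1 (1.17 ± 0.17). Ttc39c, Ccdc86, Cds1, Epsti1, Mitd1 and Ogfr rose by 0.70 to 1.14, and the other 4 are described with the time course.

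Promoters were examined for the interferon-stimulated response element, at which ISGF3 acts. Whether the risen genes depend on ISGF3 was not tested. RefSeq's GRCm38.p6 promoter table, which gives 250 bases before to 50 after the start of each gene, held 69 of the 88 genes and 8528 of all tested genes. The core letters of the interferon-stimulated response element, GAAA, any 2 bases and GAAA (TTTC, any 2 bases and TTTC on the other strand), were found in 27 of the 69 promoters (39.1%), in 2.74% of the promoters of the other tested genes and in 3.04% of all. Within the 100 bases before the start, 14 of the 69 (20.3%) held the core, against 0.768% of the other tested genes. The core letters of the gamma-activated site, TTCNNNGAA, which reads the same on both strands, were found in 7 of the 69 (10.1%) and in 6.78% of all promoters. In no promoter of a risen gene did the 2 motifs share bases. With every listed promoter of a gene counted, the response element core was in 28 of the 69 genes (40.6%) and in 3.75% of all.

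The promoters below are those of 5 risen genes that hold the core at different distances and of Pde7b, which lacks it in this window. Each is the 250 bases before the gene's start on the gene's strand, with the core in capitals.
Ifit1: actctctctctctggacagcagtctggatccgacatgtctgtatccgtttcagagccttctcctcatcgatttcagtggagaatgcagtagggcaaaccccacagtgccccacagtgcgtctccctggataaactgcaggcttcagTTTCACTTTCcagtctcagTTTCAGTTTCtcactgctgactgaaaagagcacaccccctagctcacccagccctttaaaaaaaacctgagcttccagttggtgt
Rsad2: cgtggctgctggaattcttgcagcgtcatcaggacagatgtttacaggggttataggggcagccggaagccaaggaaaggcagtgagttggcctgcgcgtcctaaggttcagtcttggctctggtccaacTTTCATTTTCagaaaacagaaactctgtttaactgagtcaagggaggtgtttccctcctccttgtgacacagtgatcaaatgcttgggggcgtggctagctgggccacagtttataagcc
Gm12250: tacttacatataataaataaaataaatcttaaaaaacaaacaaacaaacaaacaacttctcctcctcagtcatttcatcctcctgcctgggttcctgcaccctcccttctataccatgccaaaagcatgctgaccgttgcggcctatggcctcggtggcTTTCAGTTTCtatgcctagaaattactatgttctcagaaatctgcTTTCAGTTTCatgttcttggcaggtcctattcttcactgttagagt
Oas1a: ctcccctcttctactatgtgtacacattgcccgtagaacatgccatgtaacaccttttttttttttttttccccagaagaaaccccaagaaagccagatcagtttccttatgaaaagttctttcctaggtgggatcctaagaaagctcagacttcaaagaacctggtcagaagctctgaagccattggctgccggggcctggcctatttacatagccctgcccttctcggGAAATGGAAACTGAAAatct
Ddx60: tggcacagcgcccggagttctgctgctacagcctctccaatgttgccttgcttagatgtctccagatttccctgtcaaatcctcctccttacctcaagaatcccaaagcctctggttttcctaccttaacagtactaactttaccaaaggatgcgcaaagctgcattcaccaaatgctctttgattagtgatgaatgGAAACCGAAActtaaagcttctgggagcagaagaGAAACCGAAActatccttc
Pde7b: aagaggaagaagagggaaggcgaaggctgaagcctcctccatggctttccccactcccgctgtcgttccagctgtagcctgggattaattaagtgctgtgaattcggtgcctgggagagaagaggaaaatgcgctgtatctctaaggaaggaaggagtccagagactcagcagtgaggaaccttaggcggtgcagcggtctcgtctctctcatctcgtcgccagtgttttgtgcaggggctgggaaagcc
Counted from the start site, the core began at -104 and -85 in Ifit1, at -120 in Rsad2, at -91 and -46 in Gm12250 and at -53 and -19 in Ddx60. In Oas1a a pair of overlapping cores began at -20 and -14. The coordinates are chr19:34640639-34640888 (plus strand) for Ifit1, chr12:26456453-26456702 (minus strand) for Rsad2, chr11:58183593-58183842 (plus strand) for Gm12250, chr5:120907526-120907775 (minus strand) for Oas1a, chr8:61927837-61928086 (plus strand) for Ddx60 and chr10:20548329-20548578 (minus strand) for Pde7b. Of the 10 largest rises with a promoter in the table, 6 held the core. Position was uneven: 9 of the 69 promoters (13.0%) had a core that began between -50 and -26, against 0.189% of the other tested genes, and no other window of 25 bases reached more than 4 promoters. These 9 include neighbours of the same family, such as Trim12c, Trim30a and Trim30d, and Slfn8 and Slfn9. The count over the whole window includes such families as well. Promoters within a family may not be independent, which was not tested. A match in letters is a description of the sequence, and binding was not measured here.

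**Figure D3:**
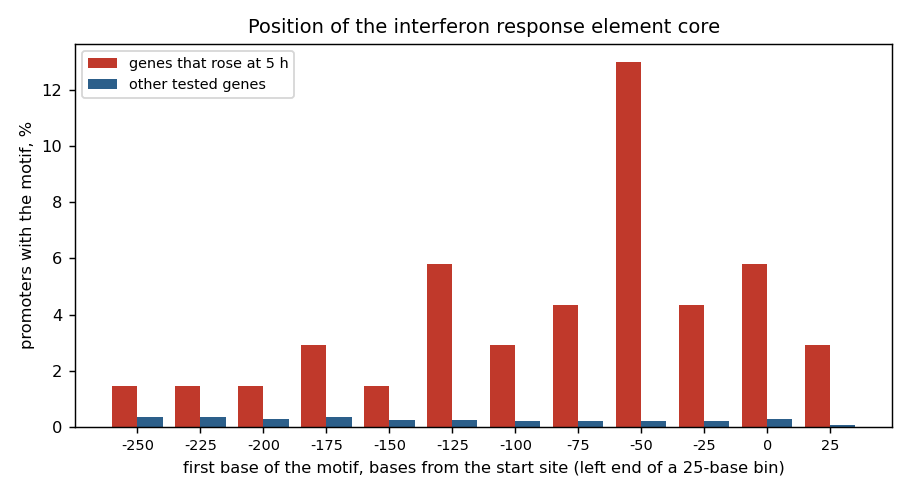
Share of promoters, in percent, with the response element core beginning in each window of 25 bases (horizontal, bases from the start site), for the risen genes (red, 69 promoters) and for the other tested genes (blue, 8459 promoters). The red bar of the window that begins at -50 is the tallest at 13.0%, and the blue bars stay below 0.5% in all windows.

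Some of the risen genes were neighbours on the chromosome. Another risen gene lay within 2 tested genes for 36 of the 88, in 10 groups. No such count was made for all tested genes. Several groups are families of similar sequence whose probe sets may share signal, so their members may not rise separately. The largest groups were the 8 Schlafen genes on chromosome 11, the Ifi200 genes on chromosome 1 (Ifi209, Ifi208, Ifi207, Ifi203 and Ifi205) and the Oas genes on chromosome 5 (Oas2, Oas3, Oas1c, Oas1b and Oas1a). Smaller ones were the Trim30 group on chromosome 7, Parp14 with Dtx3l and Parp9 and, apart from them, Mx1 with Mx2 on chromosome 16, Phf11a, Phf11d and Setdb2 on chromosome 14, Ifit1 with Ifit3 and Ms4a6c with Ms4a6d on chromosome 19, and Rsad2 with Cmpk2 on chromosome 12. Chromosome 11 held 15 of the 88 genes and chromosome 1 held 9, and neither count was set against all tested genes.

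The 2 h arrays show how much of the 5 h response was already present. In the same model 84 genes (0.798%) rose at 2 h, 71 of them among the 88, and the same vehicle arrays serve both comparisons. The direct comparison of 5 h with 2 h after IFNα found 1 gene, 0.0095% of those tested. This gene was Pde7b, which measured 7.43 and 7.44 with vehicle, 7.75 and 7.56 at 2 h and 9.80 and 9.79 at 5 h. Its level at 5 h exceeded that at 2 h by 2.14 ± 0.12 (adjusted p = 6.4e-05), and its groups at 2 h and 5 h did not overlap. Without adjustment, p was under 0.05 for 407 genes higher (3.86%) and 122 genes lower (1.16%) at 5 h than at 2 h. Of the 88 genes, 48 were higher at 5 h and 40 at 2 h, 15 and 3 of them at an unadjusted p under 0.05, with a median difference of 0.04. The 2 arrays at 2 h differed with an SD of 0.23, against 0.16 for those at 5 h. Some interferon genes differed far more between 2 h arrays 1 and 2, such as Ifit3 (11.26 and 8.96) and Usp18 (12.03 and 10.28). This spread limits the comparison of 5 h with 2 h.

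The 17 genes that rose at 5 h and did not pass at 2 h were Pde7b, Zbp1, Herc6, Parp12, Fcgr1, Stxbp3, Tdo2, Ttc39c, Ccdc86, Ms4a6d, Cds1, Camk2d, Mlkl, Oas1c, Cd300lf, Slc52a3 and Slc7a5. Only the threshold sets them apart, and several had similar differences at both times. The differences from vehicle at 2 h and 5 h were 1.37 and 1.40 for Fcgr1, 1.74 and 2.15 for Zbp1, and 1.53 and 1.71 for Herc6. The genes described next had larger gaps between the times. Tdo2, which opens the tryptophan ring, measured 7.95 and 7.59 with vehicle, 8.06 and 7.71 at 2 h and 9.08 and 8.78 at 5 h. Its difference between 5 h and 2 h was 1.04 ± 0.17, past the unadjusted threshold and not the adjusted one (adjusted p = 0.353). Slc7a5, a transporter of large neutral amino acids, measured 8.50 and 8.78 with vehicle, 8.72 and 8.66 at 2 h and 9.31 and 9.36 at 5 h (5 h minus 2 h 0.65 ± 0.13, adjusted p = 0.520). The kinase Camk2d measured 9.86 and 9.83 with vehicle, 10.22 and 10.02 at 2 h and 10.93 and 10.78 at 5 h (0.74 ± 0.16, adjusted p = 0.562). The riboflavin transporter Slc52a3 measured 8.14 and 8.06 with vehicle, 8.32 and 8.36 at 2 h and 8.93 and 8.71 at 5 h (0.48 ± 0.12, adjusted p = 0.811). In these 4 genes both 5 h arrays lay above the other 4 arrays, an order that 12.1% of all tested genes showed. Of the 17 genes, which the threshold alone sets apart, 12 had a promoter in the table. Of these 12, 1 held the response element core (8.33%).

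The Mx genes leaned the other way, with the 2 arrays at 2 h far apart. Mx1 measured 6.15 and 6.12 with vehicle, 11.87 and 10.84 at 2 h and 10.47 and 10.80 at 5 h, and Mx2 measured 5.67 and 5.72 with vehicle, 10.76 and 9.88 at 2 h and 9.09 and 9.41 at 5 h. The 5 h minus 2 h differences were -0.72 ± 0.26 for Mx1 and -1.07 ± 0.24 for Mx2, neither past the adjusted threshold (adjusted p = 0.904 and 0.562). For Mx1 the lower 2 h array (10.84) was close to the higher 5 h array (10.80), so its lean rests largely on 2 h array 1. Oas3 had a difference of the opposite sign, with 7.12 and 7.21 in vehicle, 9.32 and 8.13 at 2 h and 9.60 and 9.70 at 5 h (0.93 ± 0.29, adjusted p = 0.904). The 13 genes that rose at 2 h and did not pass at 5 h included Trim25, Arg1, Oasl1, Il15, Ccl2 and Zc3hav1.

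**Figure D4:**
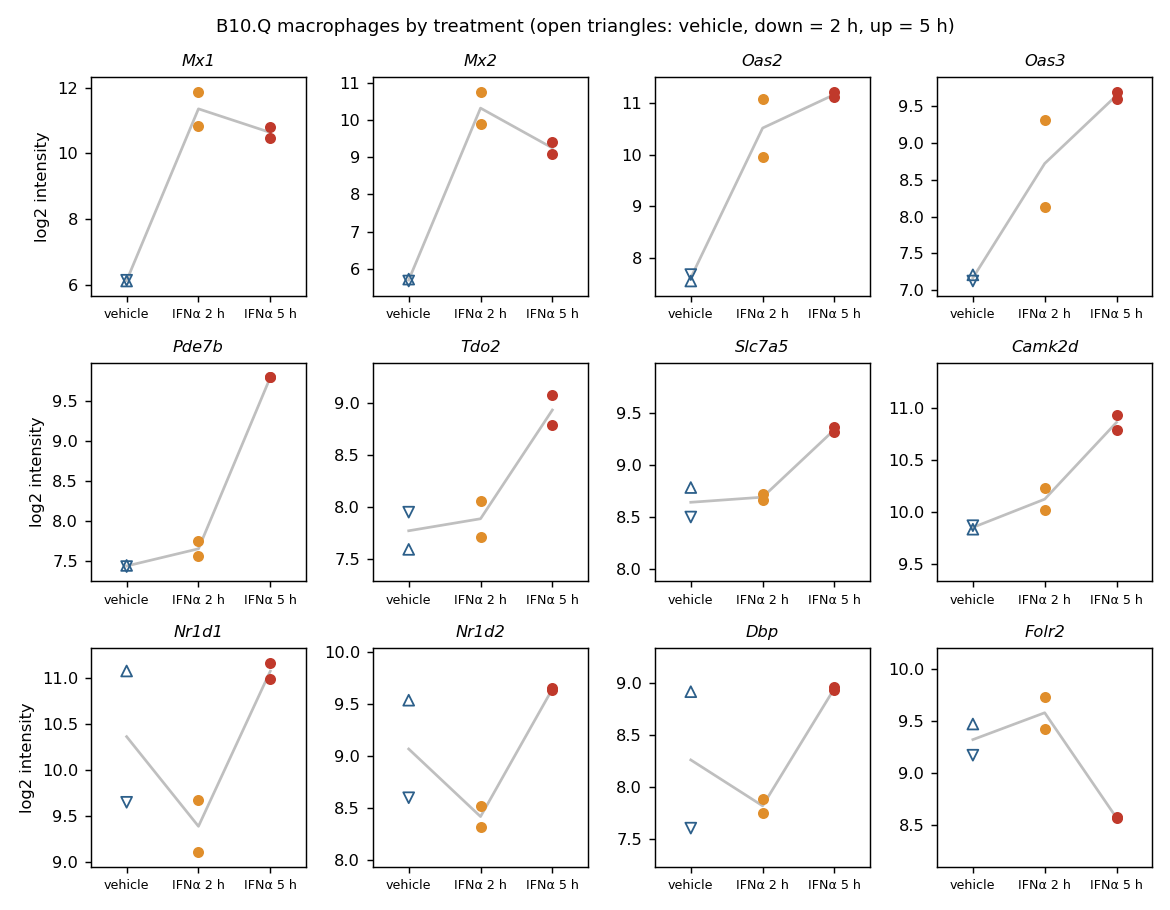
Levels in log2 intensity (vertical, a scale per gene) in vehicle (open triangles, down for 2 h and up for 5 h), at 2 h and at 5 h after IFNα (filled points, 1 per array), for 12 genes, with a grey line through the group means. Pde7b, Tdo2, Slc7a5 and Camk2d are highest at 5 h, Mx1 and Mx2 have their highest array at 2 h, and the clock genes Nr1d1, Nr1d2 and Dbp differ between the 2 vehicle arrays.

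The vehicle pair joins 2 times of sacrifice, and clock genes differed between its arrays. Nr1d2, a repressor of the molecular clock, measured 9.65 and 9.63 at 5 h after IFNα and 9.53 in the 5 h vehicle array, against 8.60 in the 2 h vehicle array. Dbp, a clock output factor, measured 8.93 and 8.96 after IFNα, 8.91 in the 5 h vehicle array and 7.60 in the 2 h vehicle array. Of 14 tested clock genes 0 passed, with a median difference of 0.31. Fkbp5, a glucocorticoid target, had a difference of 1.55 ± 0.66 (adjusted p = 1.0). It measured 9.68 and 9.89 after IFNα and 8.71 and 7.76 in the vehicle arrays at 2 h and 5 h. With the 10 macrophage arrays 0 of 13 tested glucocorticoid and metallothionein genes passed. In limma's fit of the 6 B10.Q macrophage arrays 2 of this list rose, Fkbp5 (adjusted p = 0.0217) and Mt2 (0.68, adjusted p = 0.0389). Over the 88 risen genes the median difference was 1.62 from the 5 h vehicle array and 1.62 from the 2 h one. Single genes differed more: Slc7a5 was 0.56 above the 5 h vehicle array and 0.84 above the 2 h one, and Fcgr1 was 1.64 above the 5 h and 1.15 above the 2 h array.

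On the lower side 0 genes passed, and the 10 with the smallest p were Folr2, St8sia6, Calcrl, Gask1b, Sesn3, Fchsd2, Tanc2, Rfx2, Tcim and Kbtbd11. Folr2, the folate receptor beta of resident macrophages, measured 8.57 and 8.56 after IFNα and 9.17 and 9.47 with vehicle (-0.75 ± 0.15, adjusted p = 0.0509). At 2 h it measured 9.42 and 9.73, so both 5 h arrays were below the other 4. St8sia6, a sialyltransferase, measured 10.34 and 10.15 after IFNα and 10.75 and 10.90 with vehicle (-0.59 ± 0.12, adjusted p = 0.0737). Calcrl, a receptor of the calcitonin family, measured 10.28 and 10.33 after IFNα and 11.04 and 10.81 with vehicle (-0.62 ± 0.15, adjusted p = 0.188). With the 6 B10.Q macrophage arrays alone 8 genes fell: Folr2 (adjusted p = 0.0187), Calcrl (0.0162), St8sia6 (0.0279), Tcim, Gask1b, Kbtbd11, Cbr2 and Tubb2a. Of these, 7 also fell in the fit of the 4 compared arrays, the exception being Tcim.

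The same injection was measured in splenic CD4+ T cells of the strain. Between 5 h and vehicle 2 of 10112 genes (0.0198%) rose in T cells, Rtp4 and Neb, the gene of the muscle protein nebulin. Without T-cell vehicle array 1, the array titled with B, limma called 0 genes in either direction, with differences of 2.08 for Rtp4 and 1.53 for Neb (adjusted p = 0.343 for both). Of the 88 macrophage genes, 74 were tested in T cells, where 66 were above 0. Without adjustment, p was under 0.05 for 39 of them on the higher side, against 2.32% of all genes tested in T cells, and for 0 on the lower side, against 1.5%. Over all genes tested in T cells the median was 0.00. For the 74 it was 1.65 in macrophages, where they were chosen by their rise, and 0.48 in T cells. Without T-cell vehicle array 1 their median in T cells was 0.49, and p was under 0.05 before adjustment for 23 of the 74, all higher. Ifit1 had a T-cell difference of 2.61 ± 0.28, Ifi27l2a of 1.498 ± 0.19 and Usp18 of 1.47 ± 0.27, none of them past the adjusted threshold.

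The difference between the responses was tested directly over the 12 B10.Q arrays. Of 11161 genes, the response was larger in macrophages for 27 (0.242%) and larger in T cells for 1 (0.00896%), Neb. Of the 27, 25 were among the 88, and the others were Ms4a6b and Fcgr4. The count of 27 was 7 after quantile normalization, and it lay between 5 and 10 when any 1 of the 8 arrays of the contrast was left out, with 5 left without T-cell vehicle array 1. With values floored at each array's lower quartile it was 29, and Ms4a6b (0.63, adjusted p = 0.752), Fcgr4 (0.87, 0.077) and Ifi205 (3.09, 0.0588) did not pass. Mx1 measured 5.98 and 6.20 in T cells after IFNα and 5.96 and 5.84 in T cells with vehicle, all under the lower quartile of their arrays. Its response was larger in macrophages by 4.31 ± 0.42 as measured (adjusted p = 0.000716) and by 4.34 with the floor, and both rest on values near background. Rtp4 measured 9.95 and 10.03 in T cells after IFNα and 7.78 and 7.91 in T cells with vehicle, a response smaller than in macrophages by 2.79 ± 0.27 on the log2 scale (adjusted p = 0.000716). Pde7b measured 6.27 and 6.05 in T cells after IFNα and 6.15 and 6.39 in T cells with vehicle (macrophages minus T cells 2.46 ± 0.24, adjusted p = 0.000716). These T-cell values lay near background, under the lower quartile in all but vehicle array 2, and the difference was 2.39 with the floor. For several genes the T cells with vehicle were already high. Slfn1 measured 11.57 and 11.57 in T cells after IFNα and 11.48 and 11.38 in T cells with vehicle, and Sp100 measured 12.32 and 12.35 after IFNα and 12.18 and 12.26 with vehicle. Among the 88 genes the fitted difference was above 0 for 87, the exception being Ifi27l2a at -0.20. The 88 were chosen by their rise in these macrophage arrays, which favours a difference above 0. No conclusion about the cell types is drawn from this count.

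**Figure D5:**
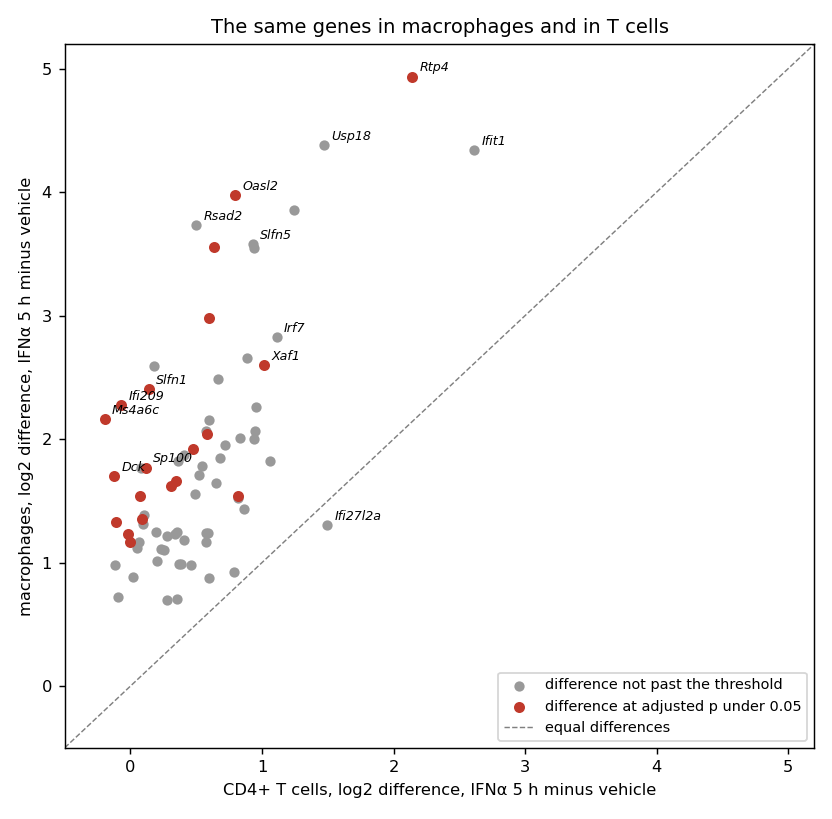
Difference between IFNα at 5 h and vehicle on the log2 scale in macrophages (vertical) and in CD4+ T cells (horizontal) for the 74 risen macrophage genes that were also tested in T cells, red where the 2 differences differed at an adjusted p under 0.05. All points but that of Ifi27l2a lie above the dashed line of equal differences, and Rtp4 (4.93 and 2.14) and Ifit1 (4.34 and 2.61) lie farthest to the right. The genes were chosen by their rise in macrophages, which favours points above the line.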

How the data were processed

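Per the labels, RNA from the sorted cells was amplified with an Ambion kit for whole-transcript expression and hybridised to Mouse Gene ST arrays of Affymetrix. The authors deposited RMA intensity values per probe set on a linear scale, made with RMA in Affymetrix Power Tools per the submitters' processing notes, and versions are not given in the sources used here. Arrays have no read depth, so the number of arrays limits the precision.

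Log2 intensities were analysed without further scaling. Of 24922 probe sets, 21425 carried exactly 1 symbol, 1399 several and 2098 none, and 21347 were matched to RefSeq (GRCm38.p6) by Entrez identifier, with 0 symbols changed. For the 921 of 19752 genes with more than 1 probe set, that with the highest mean over the 16 arrays was kept. Genes entered a test if their level exceeded the array's median on 2 or more of the arrays fitted. Models were fitted with limma 3.58.1 (lmFit and eBayes) in R 4.3.3: 10 macrophage arrays in 5 groups for macrophage comparisons, 6 T-cell arrays, and 12 B10.Q arrays for the difference between cell types. Nothing in the labels says that the 2 arrays of a group come from separate animals, so p-values measure the spread between these arrays, which may be technical. The procedure was tested on simulated data.

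The comparison, its gene lists and the rule for named genes were chosen with earlier results of these data known. Values per array were given for the 30 largest rises, and list members by whether they passed and by size of change. Alternatives were other filters, quantile normalization, subtraction of array medians, a floor, a robust variance model with a trend, use of every probe set, other sets of arrays, the replicate number as a block and leaving out each array.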

Additional observations from a re-analysis of the deposited data

Results flagged for a closer look

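The 5 h response differed between macrophages and T cells in 28 genes by the test of the difference itself, which was limma's over 12 arrays with Benjamini-Hochberg adjustment. The values are the macrophage response minus the T-cell response on the log2 scale. Among antiviral effectors the difference was 4.31 for Mx1, 3.18 for Oasl2, 2.92 for Mx2, 2.79 for Rtp4, 1.46 for Oas1b and 1.32 for Oas1a. Among sensing and DNA-handling genes it was 3.47 for Ifi205, 2.35 for Ifi209 and 1.25 for Trex1. Schlafen genes gave 2.27 for Slfn1, 1.46 for Slfn3, 1.32 for Slfn10-ps and 1.27 for Slfn2. The nuclear and chromatin-linked genes were Phf11d with 2.24, Sp100 with 1.65 and Phf11a with 1.45. Surface genes were Ms4a6c with 2.36, Siglec1 with 1.79, Ms4a6b with 1.65 and Fcgr4 with 1.22. The others were Pde7b with 2.46, Gm12250 with 2.39, Dck with 1.82, Xaf1 with 1.58, Stxbp3 with 1.44, Sass6 with 1.17 and Irf9 with 0.72. Mx1, Ifi205, Mx2 and Ms4a6b were under the lower quartile of both macrophage vehicle arrays, so their values are not exact. In the T-cell arrays compared, Mx1, Mx2, Ifi205 and Fcgr4 were under the lower quartile throughout, and Pde7b was in all but vehicle array 2. Floored at each array's lower quartile, the differences were 4.34 for Mx1, 3.09 for Ifi205, 2.95 for Mx2, 2.39 for Pde7b and 0.63 for Ms4a6b. With the floor, Ifi205 (adjusted p = 0.0588), Ms4a6b (0.752) and Fcgr4 (0.87, adjusted p = 0.077) did not pass. Neb was the exception in direction, with -1.60: it measured 6.63 and 6.61 in macrophages after IFNα and 6.70 and 6.70 in macrophages with vehicle, and 8.93 and 8.77 in T cells after IFNα and 7.34 and 7.32 in T cells with vehicle.

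Probe sets outside the gene comparisons also rose at 5 h: 15 of 951 tested probe sets with no symbol and 9 of 736 with several symbols, with 0 lower in either kind. Of the probe sets with 1 symbol, 91 of 11533 rose in the same fit. The largest differences were 2.44 with no symbol and 2.67 with several, and no gene is named from them. Most of the 15 had close identifiers and differences between 1.89 and 2.44. They need not be separate transcripts, which was not tested.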

How the results depend on the processing

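No result turned its direction under the settings run. For macrophages at 5 h against vehicle (88 higher, 0 lower), the counts were 93 and 2 without a filter, 80 and 1 with a filter at the 70th percentile, 76 and 0 after quantile normalization, 116 and 3 with all 16 arrays, 150 and 8 with the 6 B10.Q macrophage arrays, 188 and 15 with only the groups compared, and 150 and 5 without KO IFNα array 1 (chosen after seeing the data). Subtracted medians, a floor and the trend and robust model gave 87 to 90 higher and 0 lower. Use of every probe set gave 91 probe sets of 88 genes, 86 of them among the main 88, and 0 lower. Leaving out each array gave 29 to 38 higher, and 28 of the 88 genes passed in all 4 of these fits and 48 in none. For 5 h against 2 h (1 higher, 0 lower), only the groups compared gave 24 and 16, all 16 arrays 2 and 1, and leaving out an array 1 to 2 higher and 0 to 4 lower. Of the difference between macrophages and T cells (27 and 1), quantile normalization gave 7 and 1, the trend and robust model 16 and 1, all 16 arrays 13 and 1, only the groups compared 127 and 13, the 70th percentile 25 and 0, and leaving out an array 5 to 10 higher, with the lowest count of 5 reached without either 5 h array of either cell type, without macrophage vehicle array 1 or without T-cell vehicle array 1. In T cells at 5 h against vehicle (2 and 0), leaving out T-cell vehicle array 1 gave 0 and 0 (chosen after seeing the data). The cause was not tested. The replicate number as a block gave 81 higher and 0 lower for 5 h against vehicle, 1 and 0 for 5 h against 2 h, and 30 and 1 for macrophages against T cells; the numbers are not said to pair the arrays, and the deviations of same-numbered arrays in the compared groups had a correlation of 0.14. Folr2 passed at adjusted p values of 0.0109 to 0.0471 in the fits without a filter, at the 70th percentile or with other sets of arrays, and had 0.0518 to 0.622 in the others. A signal near the array's lower quartile limits the size of the rises of genes such as Ifi208.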

Other observations

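With the 6 B10.Q macrophage arrays alone, 62 further genes rose that did not pass with the KO arrays in the fit. The examples here were chosen after their values were seen. Slc15a2, a peptide transporter, measured 8.20 and 7.65 after IFNα and 6.07 and 6.03 with vehicle, a difference of 1.87 with an adjusted p of 0.0018 in the 6 arrays and 0.0507 in the 10. Trem1, an activating myeloid receptor, measured 7.99 and 8.28 after IFNα and 7.12 and 7.09 with vehicle (1.03, adjusted p = 0.00256 and 0.053). Tap1 (adjusted p = 0.00918), Il15 (0.024), Nampt (0.0148) and Isg20 (0.0377) were also past the threshold in the 6 arrays. In each of these 6 genes the IFNα arrays lay above both vehicle arrays, an order that 19.1% of all tested genes showed.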
